A study of Drosophila melanogaster with 6 samples.

Results

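The respiratory chain of the inner mitochondrial membrane and the ATP synthase were described in whole stage 11 embryos of wild type (WT) and fkh mutant Drosophila. The members are the genes whose current symbol begins with ND- (complex I), UQCR- (complex III) or ATPsyn (ATP synthase, also called complex V), the COX genes numbered 4 to 8 (complex IV), and SdhA to SdhD (complex II). The rule uses their names. In all, 77 probe sets named 69 of these genes, of the 18769 probe sets and 11982 genes covered by the array: 32 genes of complex I, 3 of complex II, 6 of complex III, 14 of complex IV and 14 of the ATP synthase. Of the 69, 18 have a name that ends in L, or in L and a digit, and are second genes that resemble a first gene of the same subunit. The other 51 are the first genes.

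Expression was measured on Affymetrix Drosophila Genome 2.0 arrays in 3 collections of Oregon R embryos and 3 collections of fkh6 mutants, 1 array each. The mutants carry the fkh6 allele of fork head, the gene of the single FoxA factor of the fly, and the labels give Oregon R as their strain too. All embryos were aged at one temperature and were run through a sorter ahead of RNA extraction, and they hold all tissues of the embryo, most of which do not express fkh. In such samples fewer cells of a type and less RNA per cell cannot be told apart. The fkh transcript itself was at 10.23, 10.11 and 10.28 in WT and at 10.83, 10.62 and 10.64 in the mutants (log2 signal, replicates 1 to 3). It was higher in the mutants by the call rule used for all genes (log2 difference 0.49, adjusted p = 0.012 from limma), so that the arrays do not show its loss. The mutant arrays scattered more widely, with a median SD of 0.146 (log2 units, all probe sets) against 0.0751 in WT. Limma array weights were lowest for fkh replicate 3 (0.224) and replicate 2 (0.436).

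Oxidative phosphorylation passes electrons from NADH through complex I, and from succinate through complex II, to ubiquinone. Complex III hands them on to cytochrome c and complex IV to oxygen, while complexes I, III and IV pump protons across the inner membrane. The ATP synthase lets the protons flow back and makes ATP. Complexes I, III and IV and the ATP synthase are built from subunits coded in the nucleus and in mitochondrial DNA, and complex II from nuclear subunits alone, so that the genes described here are the nuclear share. In the fly the mother loads the egg with mitochondria and with many transcripts.

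The transcripts of this machinery were nearly level between the genotypes. By the rule used, only UQCR-11, of complex III, fell in fkh mutants, from a weak WT mean of 6.62, and no member rose. The rule asks for an adjusted p under 0.05 and a fold over 1.4 (0.49 in log2 units). By the same rule 7.89% of all genes were lower and 7.8% higher. Log2 differences of the 69 genes, fkh mutant minus WT, ran from -0.73 to 0.47 with a median of 0.03, beside a median of -0.07 over all genes. The 95% interval of the difference lay within 1.4-fold in either direction in 54 of the 69 members, and in 56.6% of all genes. In the other 15 members a change of 1.4-fold lay inside the interval.

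**Figure D1:**
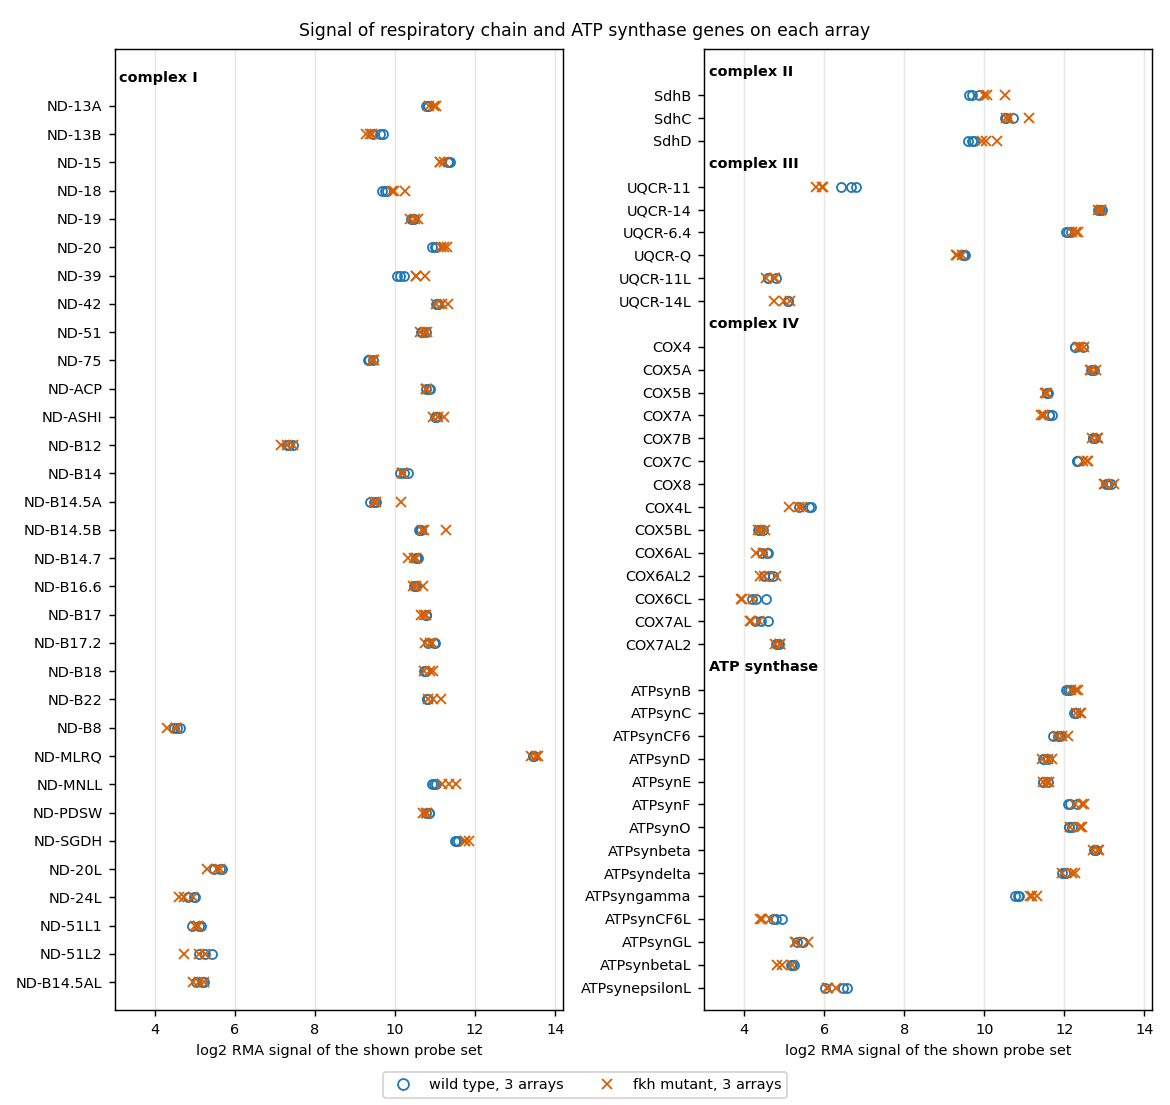
Log2 RMA signal (x axis) of the 69 member genes (rows, by complex) on the 3 WT arrays (circles) and the 3 fkh mutant arrays (crosses), 1 probe set per gene. Circles and crosses lie close together in nearly all rows; in the row of UQCR-11 the crosses stand to the left of the circles, at 5.78 to 5.96 against 6.42 to 6.79.

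Without the fold minimum, 5 members were higher at an adjusted p under 0.05 (ND-39, ND-MNLL, ND-SGDH, SdhD and ATPsyngamma) and 1 was lower (UQCR-11), where 9.31% of all genes were higher and 12.1% lower. At an unadjusted p under 0.05 limma gave 10 higher and 5 lower members, beside 15% and 22.4% of all genes, and none of the 10 was over 1.4-fold. All 3 fkh arrays lay above all 3 WT arrays in 13 members and below them in 9, which was so in 16.6% and 27.5% of all genes. Among the 51 first genes, 36 had a difference above 0 and 15 below, with a median of 0.07. Of all 11982 genes, 4425 were above 0 and 7557 below. The split depends on how arrays are scaled: 43 of the 51 were above 0 with cyclic loess and 47 with scaling to cytosolic ribosomal protein genes, and between 30 and 38 when 1 array was left out. The count at an adjusted p under 0.05 was 4 higher and 4 lower without fkh replicate 3, and 7 higher and 5 lower with array weights. None of the 5 higher members kept an adjusted p under 0.05 without WT replicate 2 or without WT replicate 3.

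**Figure D2:**
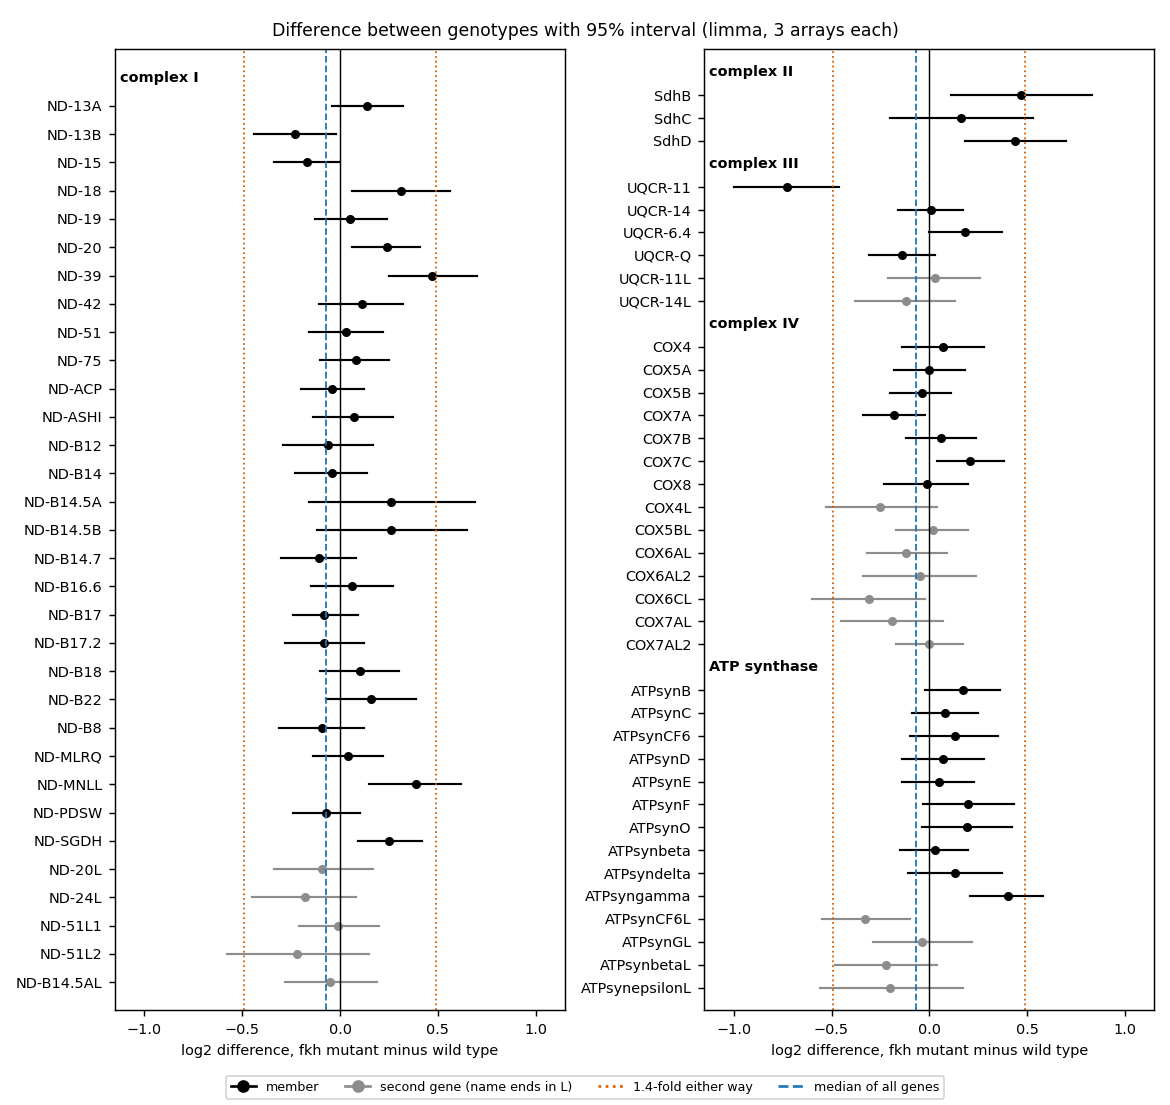
Log2 difference (x axis, fkh mutant minus WT) with its 95% interval from limma for each member (rows, by complex; grey marks second genes), with dotted lines at 1.4-fold and a dashed line at the median of all genes, -0.07. The interval of UQCR-11 ends at -0.46. Those of ND-18, ND-39, ND-B14.5A, ND-B14.5B, ND-MNLL, SdhB, SdhC, SdhD and ATPsyngamma reach past the upper dotted line. Those of UQCR-11 and of the second genes ND-51L2, COX4L, COX6CL, ATPsynCF6L and ATPsynepsilonL reach past the lower one.

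Complex I, the NADH dehydrogenase, had 32 members and none was called by limma, where 7.89% of all genes were lower and 7.8% higher. At an unadjusted p under 0.05 limma gave 5 higher and 1 lower, beside 15% and 22.4% of all genes. The differences of the complex ran from -0.23 to 0.47 with a median of 0.03. Of the 32 intervals 26 lay within 1.4-fold, beside 56.6% of all genes. The core subunits that carry out electron transfer and were measured here are ND-75, ND-51 and ND-20. ND-51, which binds NADH, was at 10.77, 10.65 and 10.67 in WT and 10.75, 10.62 and 10.80 in the mutants, a difference of 0.03 with overlapping groups (interval -0.16 to 0.22). ND-75, an iron-sulfur subunit, differed by 0.08 (adjusted p = 0.527). ND-20, which holds the last iron-sulfur cluster before ubiquinone, was at 11.00, 11.02 and 10.93 in WT and 11.15, 11.21 and 11.29 in the mutants. Its groups did not overlap, and its difference of 0.24 did not pass the test (adjusted p = 0.0744). ND-24, ND-49, ND-30 and ND-23, the other nuclear core subunits, were not analysed here.

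The 24 accessory first genes of complex I, which surround the core, had a median of 0.06, with 14 above 0 and 10 below. The largest difference was that of ND-39, an accessory subunit of the arm that faces the matrix. It was at 10.22, 10.04 and 10.12 in WT and at 10.52, 10.53 and 10.74 in the mutants. Every mutant array was above every WT array, by 0.47 in the means (standard error 0.09, interval 0.25 to 0.70, adjusted p = 0.0157 from limma), which is 1.39-fold and so just short of the fold minimum. It passed both parts of the rule after cyclic loess (0.58), after ribosomal protein scaling (0.64) and without WT replicate 1, fkh replicate 1 or fkh replicate 2 (0.51 to 0.52). ND-39 overlaps the zinc transporter gene ZnT77C in the annotation.

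ND-MNLL and ND-SGDH, small accessory subunits of the membrane arm, were also higher in every mutant array. ND-MNLL was at 10.96, 11.01 and 10.91 in WT and 11.18, 11.34 and 11.52 in the mutants (difference 0.39, standard error 0.10, adjusted p = 0.0412). It overlaps CG45089. ND-SGDH was at 11.56, 11.49 and 11.52 in WT and 11.75, 11.74 and 11.84 in the mutants, a smaller difference of 0.25 that lay just under the threshold (adjusted p = 0.050) and just over it with the dimmest probe sets left out (adjusted p = 0.052). ND-18, an accessory subunit needed for a stable complex in mammals, differed by 0.31 without passing (adjusted p = 0.0942).

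Accessory members on the other side of 0 differed by less. The lowest was ND-13B, at 9.69, 9.44 and 9.61 in WT and 9.36, 9.27 and 9.41 in the mutants, where the groups did not overlap and the difference of -0.23 did not pass (adjusted p = 0.131). ND-MLRQ, which in mammals was first assigned to complex I and later to complex IV, was at 13.44, 13.44 and 13.48 in WT and 13.51, 13.57 and 13.39 in the mutants. Its groups overlapped (difference 0.04). ND-B8 gave a weak signal in both genotypes, 4.31 to 4.62, below the median of 5.36 over all probe sets, so that its difference of -0.09 says little of its transcript. ND-B14.5A and ND-B14.5B were high only in fkh replicate 3, at 10.15 and 11.28, where the other mutant arrays read 9.52 and 9.48, and 10.66 and 10.72.

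Complex II, the succinate dehydrogenase that also serves the citric acid cycle, had the highest median of the 5 complexes, 0.44, over its 3 measured members. SdhA, the subunit that oxidises succinate, was not analysed here. SdhB, the iron-sulfur subunit, was at 9.70, 9.86 and 9.61 in WT and at 10.07, 10.00 and 10.52 in the mutants. The groups did not overlap and the mean difference was 0.47, yet the spread of the mutants was wide and the test was not passed (standard error 0.15, interval 0.11 to 0.83, adjusted p = 0.0809). SdhD, a membrane anchor, was at 9.68, 9.73 and 9.59 in WT and 10.05, 9.95 and 10.31 in the mutants (difference 0.44, standard error 0.11, adjusted p = 0.0350, 1.36-fold). It passed both parts of the rule after cyclic loess (0.56), after ribosomal protein scaling (0.60) and without fkh replicate 2 (0.52). SdhD overlaps PTPMT1, a mitochondrial phosphatase gene.

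The other anchor, SdhC, did not differ in the same way on all arrays. It was at 10.72, 10.54 and 10.52 in WT and at 10.61, 10.55 and 11.11 in the mutants, so that fkh replicate 3 alone stood above WT (difference 0.16, interval -0.20 to 0.53, adjusted p = 0.524). All 3 members were highest in fkh replicate 3, and their intervals all reached beyond 1.4-fold. Without that array the median of the complex was 0.305.

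**Figure D3:**
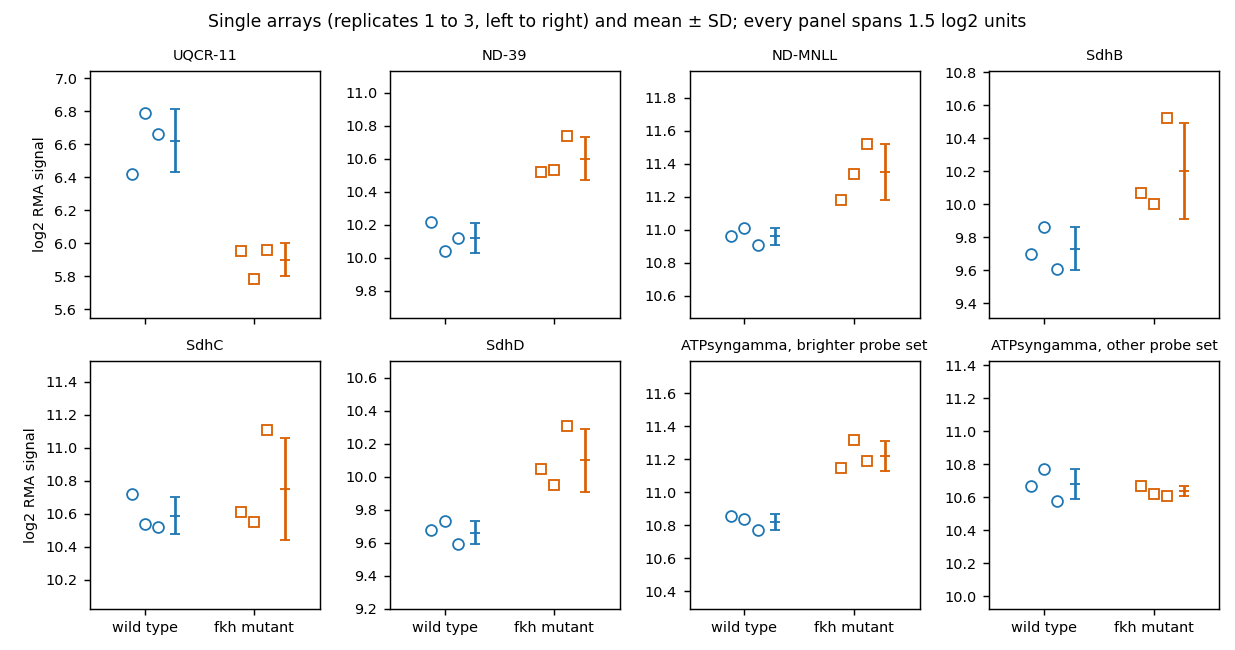
Log2 RMA signal (y axis) of UQCR-11, ND-39, ND-MNLL, the 3 measured complex II genes and both probe sets of ATPsyngamma on each array (WT circles, fkh mutant squares), with the mean and SD of the 3 arrays beside them. The groups are apart for UQCR-11 (down) and for ND-39, ND-MNLL, SdhB, SdhD and the brighter ATPsyngamma probe set (up), and overlap for SdhC and the other ATPsyngamma probe set.

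Complex III, the cytochrome bc1 complex, held the only call. UQCR-11, a small accessory subunit, was at 6.42, 6.79 and 6.66 in WT and at 5.95, 5.78 and 5.96 in the mutants. Its signal was weak for a first gene, as 48 of the 51 had a WT mean over 9. The median of all probe sets in WT was 5.36. All mutant arrays were below all WT arrays, and the transcript was 1.66-fold lower (log2 difference -0.73, standard error 0.11, interval -1.0 to -0.46, adjusted p = 0.0069 from limma). The difference stayed between -0.83 and -0.64 with any 1 array left out. It shrank to -0.60 with cyclic loess and to -0.56 with ribosomal protein scaling, where the call was kept. The call was lost, at an adjusted p of 0.055, when the spread was not pooled over probe sets. UQCR-11 lies on chromosome arm 3L, which also carries 22.3% of the genes called lower and 19.6% of all genes. Whether the fkh6 strain differs from Oregon R in the sequence under its probes was not tested.

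The rest of complex III was close to level. UQCR-14, a subunit on the matrix side, was at 12.93, 12.84 and 12.88 in WT and 12.84, 12.91 and 12.92 in the mutants, a difference of 0.01 with an interval of -0.16 to 0.17. UQCR-Q, a small subunit beside cytochrome b, was -0.14 in its difference (adjusted p = 0.25), and UQCR-6.4 was 0.18 (adjusted p = 0.157). Their groups did not overlap, in opposite directions. Cyt-c1 and RFeSP, which carry a heme and the iron-sulfur cluster of the complex under names outside the rule, differed by 0.20 and 0.17 (adjusted p = 0.131 and 0.155).

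Complex IV, cytochrome c oxidase, was close to level. None of its 14 genes had an adjusted p under 0.05 from limma, where 9.31% of all genes were higher and 12.1% lower. At an unadjusted p under 0.05, 1 was higher and 2 were lower, beside 15% and 22.4% of all genes. The differences ran from -0.31 to 0.21 with a median of -0.03. Of the 14 intervals 12 lay within 1.4-fold, beside 56.6% of all genes. Its nuclear subunits surround the catalytic core that mitochondrial DNA encodes. COX5A was at 12.74, 12.66 and 12.68 in WT and 12.64, 12.66 and 12.78 in the mutants, with a difference of 0.00 (interval -0.18 to 0.18). COX8 was at 13.16, 13.03 and 13.09 in WT and 12.99, 13.01 and 13.23 in the mutants, again with overlapping groups (difference -0.01). COX7A and COX7C lay on opposite sides of 0: COX7A was at 11.68, 11.61 and 11.62 in WT and 11.49, 11.42 and 11.47 in the mutants (difference -0.18, adjusted p = 0.129), and COX7C at 12.34, 12.31 and 12.32 in WT and 12.46, 12.56 and 12.59 in the mutants (difference 0.21, adjusted p = 0.0934). The groups did not overlap in either gene, and neither passed the test.

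The 10 first genes of the ATP synthase that the naming rule takes in all had slightly higher means in the mutants, with a median difference of 0.13. Of all 11982 genes, 4425 had a difference above 0. The 10 were also all higher with cyclic loess or with ribosomal protein scaling, and 9 of 10 were without fkh replicate 1. On fkh replicate 1 itself 5 of the 10 were above their WT mean, and 10 and 9 were on replicates 2 and 3. The groups were apart only in ATPsynB and in the brighter ATPsyngamma probe set. Among all genes, 16.6% had every mutant array above every WT array. All 10 genes were read from the same 6 arrays. Only 1 of them had an adjusted p under 0.05 from limma, where 9.31% of all genes were higher at that threshold. In the catalytic head and its central stalk, with blw (the alpha subunit) and sun (epsilon) added, the median of 5 genes was 0.06. Outside the naming rule, blw differed by 0.06 and sun by -0.07. The probe set shared by ATPsynG and beat-Vb was also left out of the 10 and differed by -0.02. ATPsynbeta, the catalytic subunit, was at 12.75, 12.76 and 12.80 in WT and 12.86, 12.83 and 12.71 in the mutants (difference 0.03, interval -0.15 to 0.20). The 4 genes of the peripheral stalk, which holds the head still, had a median of 0.15, the highest of the 3 parts, with ATPsynO at 0.19 and ATPsynB at 0.17 (adjusted p = 0.248 and 0.195). The 3 measured genes of the membrane part had a median of 0.08. They include ATPsynC, the subunit of the rotating ring, at 12.29, 12.30 and 12.25 in WT and 12.38, 12.42 and 12.28 in the mutants.

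ATPsyngamma, the shaft that turns inside the head, gave different answers from its 2 probe sets. The brighter one, of a kind that can match several transcripts, was at 10.86, 10.84 and 10.77 in WT and 11.15, 11.32 and 11.19 in the mutants (difference 0.40, standard error 0.08, adjusted p = 0.0157, 1.32-fold). The other was at 10.67, 10.77 and 10.58 in WT and 10.67, 10.62 and 10.61 in the mutants, with overlapping groups (difference -0.04, interval -0.22 to 0.14, adjusted p = 0.768). Their mean differed by 0.18 (adjusted p = 0.14), so the rise of this gene rests on 1 probe set. In the other 5 members with more than 1 probe set, none was called by any probe set.

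The 18 second genes had low signals in both genotypes, with WT means of 4.33 to 6.35 and 14 of the 18 below the median of all probe sets, 5.36. Of the first genes, 48 of 51 had a WT mean over 9. No detection call was used, and small differences at such low signal may say little of the transcript. In fly, several second genes of this kind are known for expression in testis. Differences of second genes had a median of -0.12, with 15 of 18 below 0. Over all genes the median was -0.07, with 7557 of 11982 below 0. Of the 18, only 10 were below 0 with cyclic loess and 8 with ribosomal protein scaling, where their median was 0.043. None was called. The lowest was ATPsynCF6L, at 4.79, 4.72 and 4.93 in WT and 4.43, 4.39 and 4.63 in the mutants (difference -0.33, adjusted p = 0.0625), while its first gene ATPsynCF6 differed by 0.13. UQCR-11L, the second gene of UQCR-11, was at 4.80, 4.59 and 4.58 in WT and 4.77, 4.55 and 4.73 in the mutants, a signal so low that a fall could hardly be seen there. The pairs ND-20 and ND-20L (0.24 and -0.09), COX4 and COX4L (0.07 and -0.25) and ATPsynbeta and ATPsynbetaL (0.03 and -0.22) had differences of opposite sign, none of which passed the test. ND-51L1 and ND-51L2 differed by -0.01 and -0.22, and ND-24L and ND-B14.5AL by -0.18 and -0.05. In complex III UQCR-14L differed by -0.12. In complex IV the second genes were COX5BL (0.02), COX6AL (-0.12), COX6AL2 (-0.05), COX6CL (-0.31), COX7AL (-0.19) and COX7AL2 (0.00), and in the ATP synthase ATPsynGL (-0.04) and ATPsynepsilonL (-0.20).

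Averaged over the 51 first genes, the deviation from the WT mean was 0.013, 0.051 and 0.171 in fkh replicates 1, 2 and 3, and over all genes it was 0.035, 0.050 and -0.005. The medians of these deviations were -0.005, 0.063 and 0.147 for the first genes and -0.07, -0.122 and -0.019 for all genes. By the means the first genes stood farthest above all genes in replicate 3, whereas by the medians they stood above all genes on every mutant array, by the most in replicate 2. Fkh replicate 3 was the highest of the 3 mutant arrays in 39 of the 51 genes (76.5%), and in 42.2% of all genes. Complex II stood out most, at 0.251, 0.169 and 0.653. The ATP synthase had its higher values in replicates 2 and 3 (0.204 and 0.178). Without fkh replicate 3 the median over the 69 members was -0.011, which was 0.10 above that of all probe sets on the same arrays, as it was with all arrays.

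**Figure D4:**
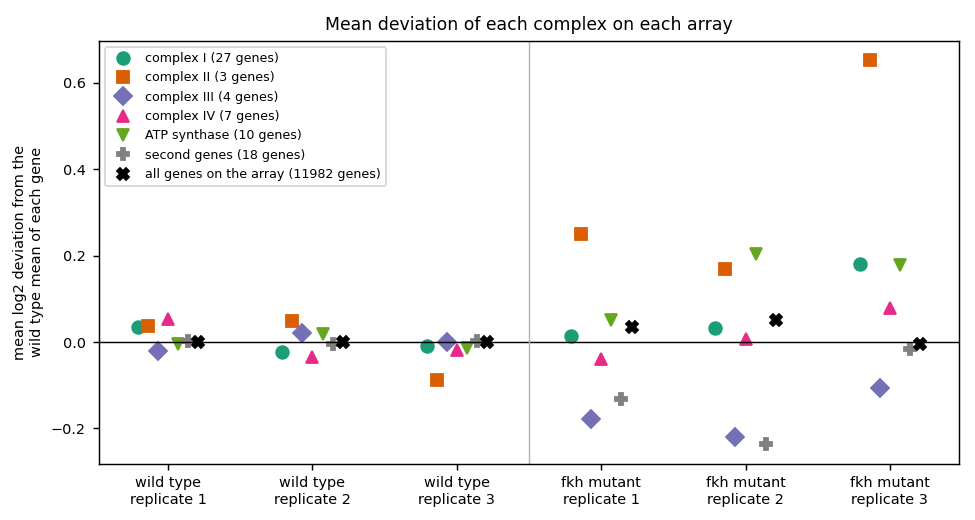
Mean log2 deviation from the WT mean of each gene (y axis) on each of the 6 arrays (x axis), for the first genes of each complex, the second genes and all genes. WT arrays lie near 0 and fkh replicate 3 has the highest point of complexes I, II and IV, with complex II at 0.653; complex III is below 0 on all 3 mutant arrays, where UQCR-11 is 1 of its 4 genes.

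Some markers of tissues in the embryo also differed between the groups, and their part in these values was not tested. By the same rule 7.89% of all genes fell and 7.8% rose. Of 6 muscle markers 5 rose, and the summed linear signal of the 6 was 2417 to 2530 in WT and 4740 to 9230 in the mutants. The WT sum was mostly that of Act87E, the marker not called, with means of 11.13 in WT and 11.40 in the mutants. Of 4 gut markers 3 fell (4544 to 4741 in WT and 2015 to 2605 in the mutants). Of 17 measured transcripts loaded by the mother 1 fell, with a median difference of 0.13, and their sum, to which the fallen gene Tl gave the largest share, varied from 5616 to 8952 among the mutants and from 8611 to 8822 in WT. Fkh replicate 2 stood apart in several of them: osk, a determinant of the germ plasm, was at 5.87, 8.29 and 4.52 in fkh replicates 1 to 3, and exu, which helps to place bcd transcripts, at 4.81, 7.74 and 4.67. Of 4 nervous system markers 2 rose (1741 to 2022 and 2743 to 3924), as did 1 of 4 fat body markers (3695 to 4134 and 4875 to 6276). The nervous system sum was mostly that of elav, with means of 10.66 in WT and 11.15 in the mutants. It was not called (adjusted p = 0.11 from limma), and brp differed by -0.21. The fat body sum was mostly that of apolpp, with means of 11.91 in WT and 12.42 in the mutants. Fbp1, Fbp2 and Lsp2 had low signals and differences of -0.05, -0.05 and -0.19. In hemocyte markers 1 of 7 rose and 1 fell (4174 to 4439 and 3339 to 4283), and neither of 2 germ line markers was called (1545 to 1782 and 1024 to 1750). The hemocyte marker that fell, srp, is also among the gut markers that fell.

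Genes that serve the same machinery under other names were mostly not called either, where 7.89% of all genes were lower and 7.8% higher. Of 12 measured respiratory genes outside the naming rule none was called by limma. At an unadjusted p under 0.05, 3 were lower and 2 higher, beside 22.4% and 15% of all genes. The median of the 12 was -0.08, or 0.040 with cyclic loess and 0.081 with ribosomal protein scaling. The 12 include blw (0.06), the complex IV subunits levy (-0.09) and cype (0.11), and the complex III subunit ox (-0.33, adjusted p = 0.0747). The ATP/ADP carrier sesB (-0.16) and the outer membrane channel porin (0.05) are also among them. Of 15 genes listed for the citric acid cycle and pyruvate dehydrogenase none was called. Only Idh and Pdk, 2 of the 15, were higher at an unadjusted p under 0.05 from limma, beside 15% of all genes. The median was -0.001, or 0.105 with cyclic loess and 0.163 with ribosomal protein scaling. In that list 2 genes were called higher with ribosomal protein scaling, 1 without fkh replicate 2 and 1 without fkh replicate 3. The largest value there was that of Idh, an isocitrate dehydrogenase that uses NADP, which was at 7.20, 7.10 and 7.10 in WT and 8.45, 9.51 and 7.72 in the mutants. Its spread among the mutants was wide, and the difference of 1.43 did not pass (adjusted p = 0.0533). The other isocitrate dehydrogenase genes of the list, Idh3a, Idh3b and Idh3g, differed by -0.04, -0.04 and -0.13.

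Genes for keeping and transcribing mitochondrial DNA had 3 of 12 members lower and none higher, with a median of -0.26. Over all genes 7.89% were lower and 7.8% higher by the same rule, with a median of -0.07. Transcripts of mtDNA-helicase, which unwinds that DNA, were at 7.91, 7.92 and 8.12 in WT and 7.38, 7.40 and 7.05 in the mutants (1.63-fold lower, adjusted p = 0.0092). Those of mtSSB, which coats single strands of it, were at 10.68, 10.52 and 10.61 in WT and 10.12, 10.00 and 10.08 in the mutants (1.45-fold lower, adjusted p = 0.0050). In both the groups were apart. The transcription factor gene mtTFB2 was 1.44-fold lower (adjusted p = 0.0279), and TFAM, which packages mitochondrial DNA, had a difference of -0.28 (adjusted p = 0.0537). That of mTerf5 was -0.48 (adjusted p = 0.0448 from limma), short of the fold minimum. Above 0 were ewg (0.55, adjusted p = 0.0801 from limma), mTerf3 (0.20), mTTF (0.10) and PolrMT (0.03). With cyclic loess or ribosomal protein scaling 1 gene of the list was called lower, and the median was -0.124 and -0.099. Without fkh replicate 3 the median was -0.134, and 2 were called lower without that array or without any 1 WT array. In the list 1 gene was called higher with ribosomal protein scaling and 1 without fkh replicate 1.

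Of 12 measured assembly factors 2 fell and none rose, where 7.89% of all genes were lower and 7.8% higher. Their median was -0.12 and turned to 0.026 with cyclic loess and 0.041 with ribosomal protein scaling. Bcs1, which inserts the iron-sulfur protein into complex III, was at 8.21, 8.03 and 8.28 in WT and 7.72, 7.37 and 7.65 in the mutants (1.51-fold lower, adjusted p = 0.0162). Sirup, an assembly factor of complex II, was at 10.71, 10.92 and 10.86 in WT and 10.52, 10.09 and 9.94 in the mutants (1.57-fold lower, adjusted p = 0.0303). Both groups of values were apart, but 0 genes of the list were called lower without WT replicate 1, without WT replicate 3 or with ribosomal protein scaling, and 1 without WT replicate 2, without fkh replicate 2 or with cyclic loess. With ribosomal protein scaling 1 was called higher, and without fkh replicate 1 there were 3 called lower. Of 17 genes of mitochondrial import and folding 1 fell and 1 rose, beside the same shares of all genes. Roe1, a partner of the import chaperone, was at 7.86, 7.97 and 7.99 in WT and 7.25, 7.37 and 7.11 in the mutants (1.62-fold lower, adjusted p = 0.0034), and the chaperonin gene Hsp60A was at 9.58, 9.46 and 9.49 in WT and 10.00, 10.32 and 10.20 in the mutants (1.59-fold higher, adjusted p = 0.0057). The median of the list was -0.01, or 0.090 with cyclic loess and 0.157 with ribosomal protein scaling.

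**Figure D5:**
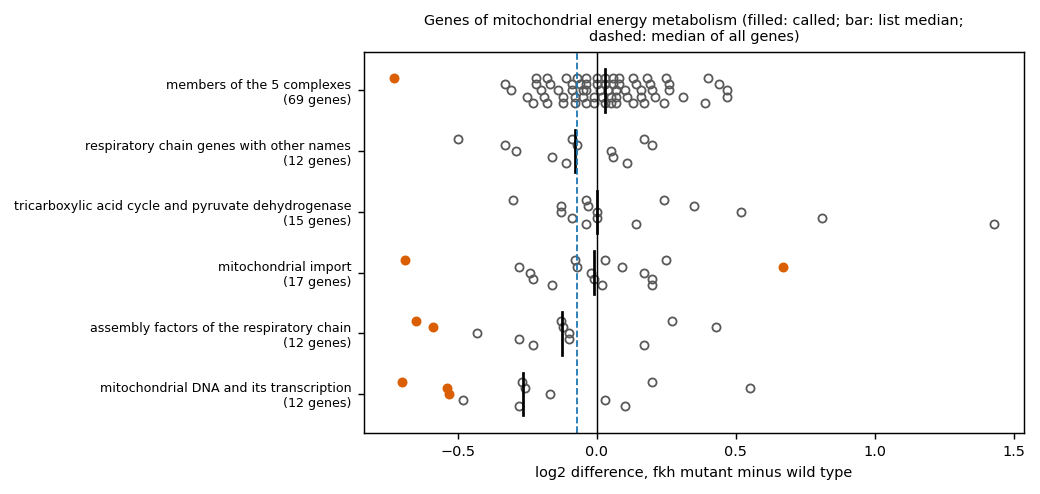
Log2 difference (x axis, fkh mutant minus WT) of each measured gene in the 5 complexes and in 5 lists of related genes (rows), with filled points for called genes, a bar at each list's median and a dashed line at the median of all genes. The 69 members lie between -0.73 and 0.47 around a median of 0.03, and the list for mitochondrial DNA has its median at -0.26 with 3 called genes on the left.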

How the data were processed

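RNA of whole stage 11 embryos, 3 WT and 3 fkh6 collections, was hybridised to 1 array each. The values used are the log2 values for 18769 probe sets that the authors deposited, made with RMA in Partek (versions not given in the sources used here), which corrects background, equalises distributions and summarises probes. Probe sets were named with the array annotation and brought to current symbols with RefSeq GCF_000001215.4 (Release 6): 13647 named 1 gene, of which 13544 matched the table, 402 named several and 4720 none. A gene with several probe sets is shown by the one with the highest mean over 6 arrays.

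The comparison used lmFit and eBayes of limma 3.58.1 (R 4.3.3) on all probe sets, with no covariate, with Benjamini-Hochberg adjustment and a call at adjusted p under 0.05 and fold over 1.4. Intervals are at 95% and come from the same fit. The script was tested on simulated data. Tables and figures used Python 3.11.15, pandas 2.3.3 and matplotlib 3.10.9. Precision is limited by the number of arrays, 3 in each group. The replicate numbers were not used as pairs (deviations of same-numbered arrays correlated at 0.072, 0.0727 and -0.0785).

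The members and lists were chosen with earlier results of these data known. Named in each complex were called members, those with the highest and lowest WT signal, the one nearest 0 and each second gene, and in related lists up to 2 called genes. Other genes in the text, including ND-39, ND-MNLL, ND-SGDH, SdhB, SdhD, ATPsyngamma, Idh, TFAM and mtTFB2, were chosen after their values were seen. CG7354, written among the assembly factors, is a mitochondrial ribosomal protein gene and was left out. Alternatives were a test without pooling, a trend, array weights, cyclic loess, ribosomal protein scaling, no dim probe sets, a replicate block, each array left out, other thresholds and the mean of a gene's probe sets. No sequence was used here.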

Additional observations from a re-analysis of the deposited data

How the results depend on the processing

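The median of all probe sets was -0.0759 as deposited, 0.0057 with cyclic loess and 0.0884 with ribosomal protein scaling, and the member median lay 0.07 to 0.12 above it in every setting. After cyclic loess 2 members were called higher (1 in complex I, 1 in complex II), with medians of 0.081 overall and 0.113 in complex I. After ribosomal protein scaling 5 were called higher (2 in complex I, 2 in complex II, 1 in the ATP synthase), 13 were higher at adjusted p under 0.05, and medians were 0.190 overall and 0.197, 0.604, 0.107, 0.137 and 0.239 in complexes I, II, III, IV and V. Both scalings turned the medians of complexes III and IV above 0 (0.010 and 0.022 after cyclic loess), and the overall median was -0.014 with array weights. Without pooling of the spread 0 members were called lower (0 in complex III), UQCR-11 stayed at -0.73 without its call, and 0 were lower and 2 higher at adjusted p under 0.05. That count was 2 lower with a trend, 5 lower with array weights, and 2 higher with the replicate block, which changed no call at the fold minimum. With no fold minimum 5 were called higher (3 in complex I, 1 in complex II, 1 in the ATP synthase), and with a minimum of 2-fold 0 were lower (0 in complex III). With 1 array left out, 0 to 2 members were called higher (0 to 1 in complex I, 0 to 1 in complex II) and 1 lower; at adjusted p under 0.05 alone, 0 to 4 were higher (0 without WT replicate 2 or 3, 1 without WT replicate 1, 3 without fkh replicate 1 or 2) and 1 to 4 lower (4 without fkh replicate 3). Leaving out an array also removes samples; the cause of the other changes was not tested. Over 374 values of 27 named members under alternatives, 26 changed sign, 11 were called only under the alternative (ND-39, ND-MNLL, SdhB, SdhD and ATPsyngamma), and 0 calls reversed.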

Other observations

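Probe sets that named a subunit gene together with another gene were left out of the counts. The one shared by CG18809 and COX6B was at 12.40, 12.33 and 12.34 in WT and 12.48, 12.50 and 12.67 in fkh mutants (log2 difference 0.20, adjusted p = 0.151). Those shared by ATPsynG and beat-Vb, by CG40472 and ND-AGGG and by COX6AL2 and Ir75d differed by -0.02, -0.12 and -0.25, and none was called.

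By chromosome arm, the 10 first genes on X had differences of 0.01 to 0.39 with a median of 0.12. Over all 1873 genes on X the median was -0.07, with 706 above 0. Of 11 first genes on 3R, 10 were above 0, with a median of 0.11. Over all 2974 genes there the median was -0.08, with 1026 above 0. The medians were -0.04 for 11 first genes on 2L, 0.12 for 8 on 2R and 0.01 for 10 on 3L, beside -0.07 for all genes on each of these arms. The differences between arms were not tested.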
